A study of Mus musculus with 2 samples.

Results

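The genes described here are 9 genes of osteoclast fusion and co-stimulation: Dcstamp, Ocstamp, Oscar, Tyrobp, Fcer1g, Trem2, Nfatc1, Itgb3 and Calcr. They were taken by gene symbol, and all 9 were found among the 56419 gene symbols of the files. Their counts of unique molecular identifiers (UMIs, each standing for 1 captured RNA molecule) were followed across cell classes of alveolar bone, in which the teeth are anchored. The study concerned orthodontic tooth movement in healthy C57BL/6J mice aged 6 to 8 weeks. In the force group a nickel-titanium spring drew the maxillary right first molar forward with a constant 25 g, and in the control group the spring was fitted but exerted no force. On day 7, bone lying up to 1 mm from the socket was collected from 12 mice and combined into 1 pool of 6 mice per group, then digested, with red cells lysed, before single-cell sequencing. The labels do not say which of the 2 libraries came from which group, so they are called library 1 and library 2, they are described side by side, and force was not compared with control.

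Osteoclasts are the bone-resorbing giant cells that form when precursors of the monocyte and macrophage lineage fuse under the cytokines CSF1 and RANKL. Fusion needs the membrane proteins encoded by Dcstamp and Ocstamp. RANKL alone is not sufficient: receptors such as OSCAR and TREM2 signal through adaptor proteins with an activation motif called ITAM, FcRγ (from Fcer1g) and DAP12 (from Tyrobp), and the calcium signal that follows activates NFATc1, the transcription factor that directs osteoclast formation. The integrin chain β3 (Itgb3) attaches the mature cell to bone, and the calcitonin receptor (Calcr) lets the hormone calcitonin halt resorption.

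Cell classes were set by fixed marker genes, with the 9 genes kept out of the genes used for clustering. There were 9996 cells in library 1 (median depth 3239.5 UMIs) and 12218 in library 2 (4501.5). Barcode sequences were not compared between the libraries. The osteoclast-like class, in which all 6 osteoclast markers (Ctsk, Acp5, Atp6v0d2, Mmp9, Slc9b2 and Rab38) were raised, held 56 cells in library 1, or 0.560% (exact 95% interval 0.423 to 0.727), and 38 cells in library 2, or 0.311% (0.220 to 0.427). Their median depth was 5077.5 and 13158 UMIs. Macrophage-like cells numbered 178 and 207, and monocyte-like cells 498 and 595. The defining macrophage marker C1qa had 0 UMIs in the osteoclast-like cells of library 1 and 1 in those of library 2, and Ctsk, which encodes the collagen-degrading protease cathepsin K, was at 10781 and 24986 CPM there, CPM being the UMIs of a gene scaled by those of all genes in the class. Not every cell of the class had Ctsk. Single cells ranged from 0 to 59586 CPM in library 1 and from 0 to 56709 in library 2. In each library 2 cells had no Ctsk UMI. Dcstamp and Oscar were themselves among the 10 leading genes of this cluster although they had no part in forming it, so their height in it is a description and not a test.

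Removal of likely doublets decides how many osteoclast-like cells remain in library 2. Taking out the 5% of cells with the highest doublet scores, which had been the intended step, removed 6 of the 56 osteoclast-like cells of library 1 and 30 of the 38 of library 2, 18 of them from the 19 cells with the most Ctsk. The score compares each cell with 150 to 165 neighbours, more than the class has cells, and the part of this in the removal was not tested. After the removal had been seen, all cells were kept for the values given here. The values with removal stand beside the counts they change. Markers of the other classes were mostly lower in the osteoclast-like cells than in free RNA, the RNA of barcodes with at most 100 UMIs. The summed macrophage markers stood at 18.4 and 30.7 CPM against 174 and 155 in free RNA, with 5 of 7 having a UMI in each library, and the summed monocyte markers at 188 and 66.5 CPM against 1135 and 1292, with 6 and 3 of 6. The erythroid markers reached 188 CPM in library 1 and 8348 in library 2, against 5633 and 34628 in free RNA, with 4 and 8 of 8 having a UMI. Plasma cell markers were above free RNA, at 295 and 280 CPM against 92.6 and 88.2, with 3 and 1 of 5 having a UMI. In library 2 the whole sum was Sdc1, and Mzb1 and Tnfrsf17 had no UMI in either library. T cell markers stood at 36.9 and 34.5 CPM against 28.1 and 21.1, with 2 and 3 of 6 and Cd3e at 0 in both libraries. Schwann and epithelial markers were just above free RNA in library 2 alone, at 63.9 CPM against 61.4 and at 10.2 against 6.56, with 2 of 5 and 1 of 5. The part of any of these in the values below was not tested.

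There was 1 library for each possible group, and cells are not replicates, so no test was made. Levels are UMIs summed over the cells of a class and given as CPM within that class and library. The intervals are exact at 95% and cover counting error only, not the spread between mice. Levels of different genes are not compared with each other, since no gene lengths were used.

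Of the 9 genes, 5 had their highest level in the osteoclast-like class in both libraries: Dcstamp, Ocstamp, Oscar, Nfatc1 and Calcr. Calcr had too few UMIs to be among the 13960 genes ranked. Without it the count was 4 of 8, and over all genes ranked it was 3.9%. A gene was ranked with at least 20 UMIs in some class of each library. In any other class Dcstamp had at most 8 and 17 UMIs, and Oscar at most 8 and 6. Both were thus ranked through osteoclast-like cells alone, and a highest level elsewhere was hardly open to them. Tyrobp and Fcer1g were highest in mature neutrophil-like cells, Trem2 in macrophage-like cells and Itgb3 in megakaryocyte or platelet-like cells. Against macrophage-like cells, 5 of the 8 genes with enough UMIs were at least 2-fold higher in osteoclast-like cells in both libraries. They were Dcstamp, Ocstamp, Oscar, Nfatc1 and Itgb3, and the share over 7791 genes was 12.7%. Macrophage-like cells held 2 and 2 UMIs of Dcstamp, 12 and 14 of Ocstamp and 2 and 0 of Oscar. These genes passed the minimum of 20 UMIs through osteoclast-like cells, where they are high, and could not have been counted as lower. Itgb3, with 19 UMIs in macrophage-like cells of library 2, passed through osteoclast-like cells in that library. The count and the median below therefore describe the genes that entered. None of the 8 was at least 2-fold lower in both, beside 13% of all genes, which in so few genes says nothing about them. Fcer1g came close, at ratios of 0.508 and 0.512, and Trem2 stood at 0.541 and 0.243. The median log2 ratio of the 8 was 3.25 and 3.95, beside 0.34 and 0.11 for all genes tested. With doublet removal, after which the repeated clustering put 50 and 10 cells in the osteoclast-like class, the count of 5 fell to 1, Nfatc1. The count of genes highest in osteoclast-like cells in both libraries was then 4, namely Dcstamp, Ocstamp, Oscar and Nfatc1. In library 2 the pericyte or smooth muscle-like class then led for Calcr. Against monocyte-like cells the same 5 of 8 genes were at least 2-fold higher in both libraries, beside 10.8% of 10005 genes, and 0 of 8 were at least 2-fold lower, beside 17.8%. There too Dcstamp and Oscar passed the minimum through osteoclast-like cells, with 8 and 17 and with 2 and 2 UMIs in monocyte-like cells. They could not have been counted as lower.

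**Figure D1:**
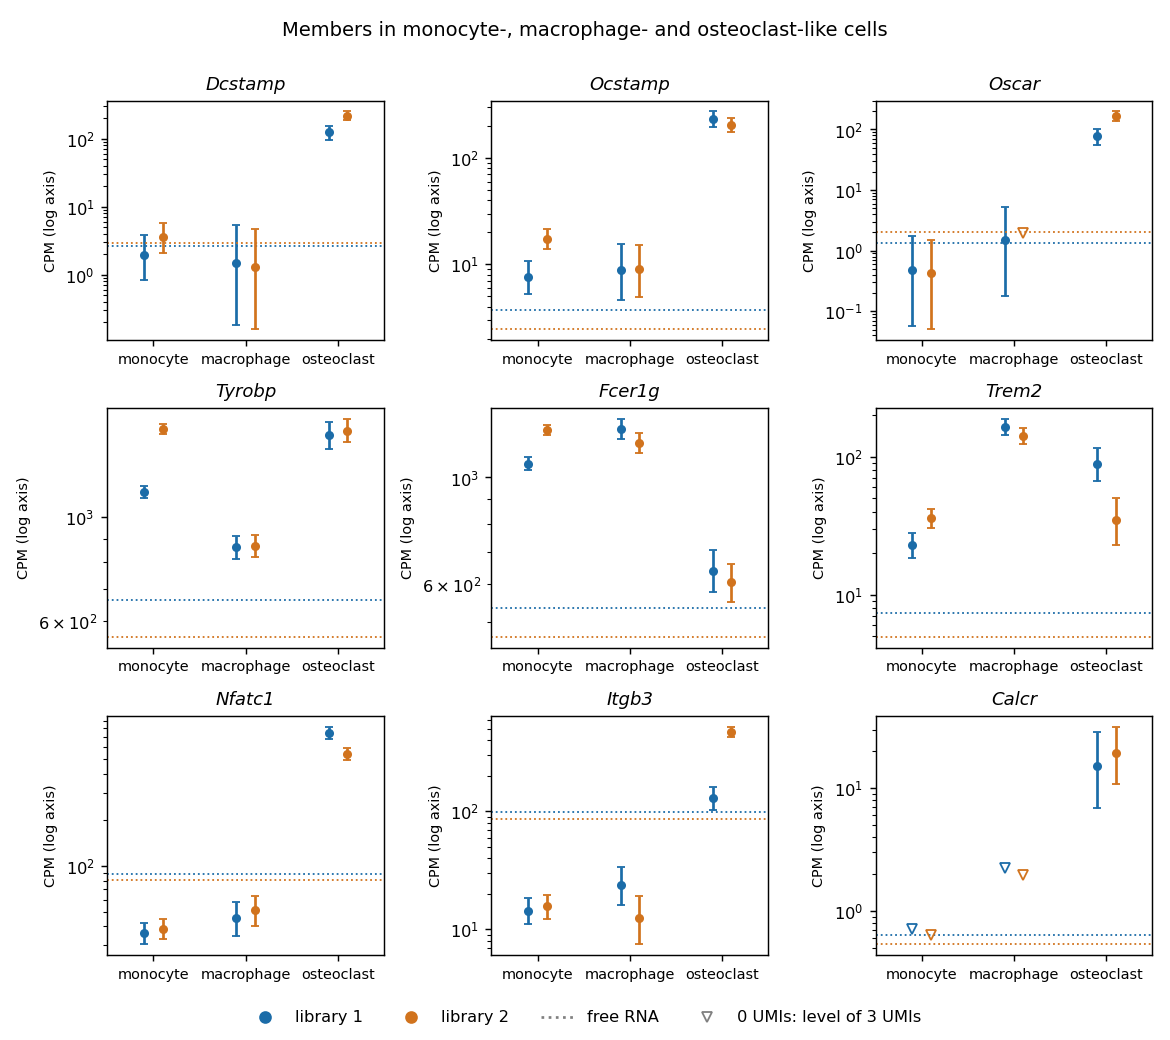
Level of each gene in CPM, on a log axis that differs between panels, in monocyte-, macrophage- and osteoclast-like cells of library 1 (blue) and library 2 (orange), with exact Poisson 95% intervals; dotted lines give free RNA, and open triangles stand for 0 UMIs, drawn at the level of 3 UMIs. Dcstamp, Ocstamp, Oscar, Nfatc1 and Itgb3 stand highest in osteoclast-like cells, Trem2 stands highest in macrophage-like cells, and Fcer1g lies lower in osteoclast-like cells than in the other classes.

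The fusion genes come first. Dcstamp encodes the multi-pass membrane protein DC-STAMP, named after dendritic cells, in which it was found. In osteoclast-like cells it had 74 UMIs in library 1, or 124 CPM (97.4 to 156), and 170 UMIs in library 2, or 217 CPM (186 to 253). Of all Dcstamp UMIs in cells, 75.5% and 74.6% lay in this class. Macrophage-like cells had 2 UMIs in each library, or 1.48 and 1.30 CPM, so the level in osteoclast-like cells was 83.8 times as high in library 1 (22.4 to 705) and 167 times in library 2 (45.5 to 1389). Monocyte-like cells stood at 1.92 CPM (0.828 to 3.78) and 3.59 CPM (2.09 to 5.74), intervals that hold the 2.63 and 2.88 CPM of free RNA. The levels in macrophage- and monocyte-like cells do not differ beyond their counting error. Dcstamp UMIs were found in 25 of 56 and 23 of 38 osteoclast-like cells, and among pro- or pre-B cell-like cells, which should lack the gene and had median depths of 2271.5 and 2146 UMIs, in at most 1 cell of either library.

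Outside the lineage Dcstamp rested on few UMIs. A cluster led by Nkx2-3, Gm19590 and Hoxa9, in which all 6 markers of stem or early progenitor cells were raised but whose leading genes left it unnamed, had 7 UMIs in library 1, or 4.90 CPM (1.97 to 10.1), and 17 in library 2, or 5.27 CPM (3.07 to 8.44), the latter from 14 of 336 cells. The interval of library 1 holds the 2.63 CPM of free RNA, and the lower limit of library 2 is close to its 2.88 CPM. It was the class next below osteoclast-like cells in library 2 and the third in order in library 1, where Schwann-like cells at 5.84 CPM came between with a level that does not differ beyond counting error.

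Ocstamp encodes OC-STAMP, the second membrane protein needed for fusion. It had 138 UMIs in the osteoclast-like cells of library 1, or 231 CPM (194 to 273), and 160 in those of library 2, or 205 CPM (174 to 239), the same within counting error. Macrophage-like cells reached 8.88 CPM (4.59 to 15.5) and 9.12 CPM (4.99 to 15.3), and monocyte-like cells 7.67 CPM (5.25 to 10.8) and 17.5 CPM (13.9 to 21.7). All of these lie above the 3.69 and 2.48 CPM of free RNA, and above pro- or pre-B cell-like cells, where 2 UMIs were counted in library 1 and 0 in library 2, which allows up to 0.879 CPM. The step from macrophage-like to osteoclast-like cells was 26.0-fold (14.4 to 51.6) and 22.4-fold (12.98 to 42.0). Ocstamp UMIs were found in 24 of 498 and 53 of 595 monocyte-like cells.

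Unlike those of Dcstamp, a sizeable share of the Ocstamp UMIs in cells lay in monocyte-like cells, 15.3% in library 1 and 29.6% in library 2, against 8.16% and 7.46% for Dcstamp. Monocyte-like cells with a UMI of 1 osteoclast marker stood at 9.15 and 26.1 CPM of Ocstamp, beside 8.27 and 14.7 CPM in those with none, and those with a UMI of 2 markers held 1 Ocstamp UMI in each library. The intervals of the groups with 0 and 1 marker overlap in both libraries, and depth differs between them, with medians of 5486 and 8196.5 UMIs in library 1 and 5694 and 6364 in library 2.

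Of the receptors, Oscar encodes a collagen-binding receptor of the immunoglobulin family that signals through FcRγ. Its UMIs in osteoclast-like cells numbered 46, or 77.1 CPM (56.5 to 103), and 131, or 167 CPM (140 to 199), so the 2 libraries differ beyond counting error. It was close to absent elsewhere: macrophage-like cells had 2 UMIs in library 1 and 0 in library 2, which allows up to 1.95 CPM, and monocyte-like cells had 2 in each. Osteoclast-like cells were thus 52.1 times as high as macrophage-like cells in library 1 (13.6 to 443) and at least 85.7-fold higher in library 2, with 3 UMIs taken as the floor. They held 68.7% and 80.9% of the Oscar UMIs in cells.

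Trem2 encodes a receptor for lipids and apoptotic cells that signals through DAP12 and is known from macrophages and microglia as well as osteoclasts. It went the other way. Macrophage-like cells had 222 and 218 UMIs, or 164 CPM (143 to 187) and 142 CPM (124 to 162). Osteoclast-like cells had 53 UMIs in library 1, or 88.8 CPM (66.6 to 116), and 27 in library 2, or 34.5 CPM (22.8 to 50.2), and monocyte-like cells 22.8 CPM (18.4 to 27.9) and 35.6 CPM (30.5 to 41.4). Macrophage-like cells were therefore 1.85 times as high as osteoclast-like cells in library 1 (1.37 to 2.55) and 4.11 times in library 2 (2.75 to 6.39). In library 1 osteoclast-like cells were 3.90 times as high as monocyte-like cells (2.73 to 5.51), whereas in library 2 the ratio was 0.969 (0.620 to 1.46). Of the 53 Trem2 UMIs in library 1, 11 came from 1 cell with 219 CPM of Ctsk, below the 264 CPM of free RNA. A further 5 came from a cell with no Ctsk UMI. Trem2 was the only one of the 6 genes tested that was at least 2-fold higher in macrophage- than in monocyte-like cells in both libraries, 7.21-fold (5.65 to 9.27) and 3.98-fold (3.24 to 4.90), where the share over 10302 genes was 6.85%.

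Oscar was higher and Trem2 lower in osteoclast- than in macrophage-like cells in both libraries, and of the 4 members with a promoter entry these receptors are shown for that difference in direction. The 250 bases before the start come from RefSeq on build GRCm38.p6, chr7:3616158-3616407 on the minus strand for Oscar and chr17:48346151-48346400 on the plus strand for Trem2. They are written 5′ to 3′ in gene direction, and capitals mark matches, on either strand, to GGAAA (the NFAT core), GAGGAA (a PU.1 core), TGANTCA (AP-1) and CACATG (an E-box bound by MITF).

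Oscar: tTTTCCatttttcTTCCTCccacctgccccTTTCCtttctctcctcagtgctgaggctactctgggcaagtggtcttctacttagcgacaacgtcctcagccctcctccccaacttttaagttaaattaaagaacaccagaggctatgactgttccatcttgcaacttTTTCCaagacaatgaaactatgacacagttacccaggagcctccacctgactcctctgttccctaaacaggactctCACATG

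Trem2: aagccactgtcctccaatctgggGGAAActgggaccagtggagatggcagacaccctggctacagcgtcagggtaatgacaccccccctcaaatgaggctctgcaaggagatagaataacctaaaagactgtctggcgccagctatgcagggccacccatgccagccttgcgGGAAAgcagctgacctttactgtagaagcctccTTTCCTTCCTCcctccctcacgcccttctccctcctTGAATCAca

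The Oscar window held 3 matches to GGAAA, which began 249, 220 and 82 bases before the start, 1 to GAGGAA at 237 bases and 1 to CACATG at 6 bases. The Trem2 window held 3 matches to GGAAA at 227, 78 and 45 bases, 1 to GAGGAA at 40 bases, which directly follows the last of them without sharing a base, and 1 to TGANTCA at 9 bases. Of the 32851 promoters in the table, 55.6% held GGAAA in the same window, 23.3% GAGGAA, 6.75% TGANTCA and 12.3% CACATG. A match is a description of the letters only. The Fcer1g window had 1 match, to GGAAA, and the Calcr windows of 2 alternative starts had 0 and 1, also to GGAAA. Dcstamp, Ocstamp, Tyrobp, Itgb3 and Nfatc1 were not analysed here for sequence.

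The adaptors were broad. Tyrobp reached 1500 CPM (1404 to 1602) in the osteoclast-like cells of library 1 and 1534 CPM (1449 to 1624) in those of library 2. Mature neutrophil-like cells were higher, at 2714 and 2852 CPM, and plasmacytoid dendritic cell-like cells, an interferon-producing type, stood at 1482 and 2017 CPM. Osteoclast-like cells were second of 24 classes in library 1 and in place 4 in library 2, with 1.74 times (1.59 to 1.90) and 1.77 times (1.63 to 1.91) the level of macrophage-like cells. Against monocyte-like cells the ratio was 1.32 (1.23 to 1.42) in library 1 and 0.993 (0.933 to 1.06) in library 2. Fcer1g ran the opposite way, at 640 CPM (578 to 708) and 605 CPM (551 to 662) in osteoclast-like cells against 1261 and 1180 in macrophage-like cells, ratios of 0.508 (0.453 to 0.568) and 0.512 (0.462 to 0.567). Free RNA held 534 and 466 CPM of Fcer1g and 663 and 554 of Tyrobp, whereas pro- or pre-B cell-like cells had 62.3 and 38.1 CPM of Fcer1g and 81.3 and 73.8 of Tyrobp.

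The balance of the adaptors therefore differed between classes. Osteoclast-like cells had 2.34 Tyrobp UMIs per Fcer1g UMI in library 1 (2.08 to 2.65) and 2.54 in library 2 (2.28 to 2.83). Macrophage-like cells had 0.684 (0.634 to 0.737) and 0.735 (0.684 to 0.789), and monocyte-like cells 1.06 (1.02 to 1.10) and 1.23 (1.19 to 1.28). Ratios as high were seen in plasmacytoid dendritic cell-like cells, at 2.34 and 3.18, and the mature neutrophil-like cells came near with 2.03 and 1.80. The lowest ratios were those of megakaryocyte or platelet-like cells, whose platelets use FcRγ with the collagen receptor GPVI, at 0.159 and 0.0605. Free RNA stood at 1.24 and 1.19, so the ratio of osteoclast-like cells lay above that of free RNA and the ratio of macrophage-like cells below it. The UMI ratio is not a ratio of molecules per cell between the genes; only its change across classes is described.

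**Figure D2:**
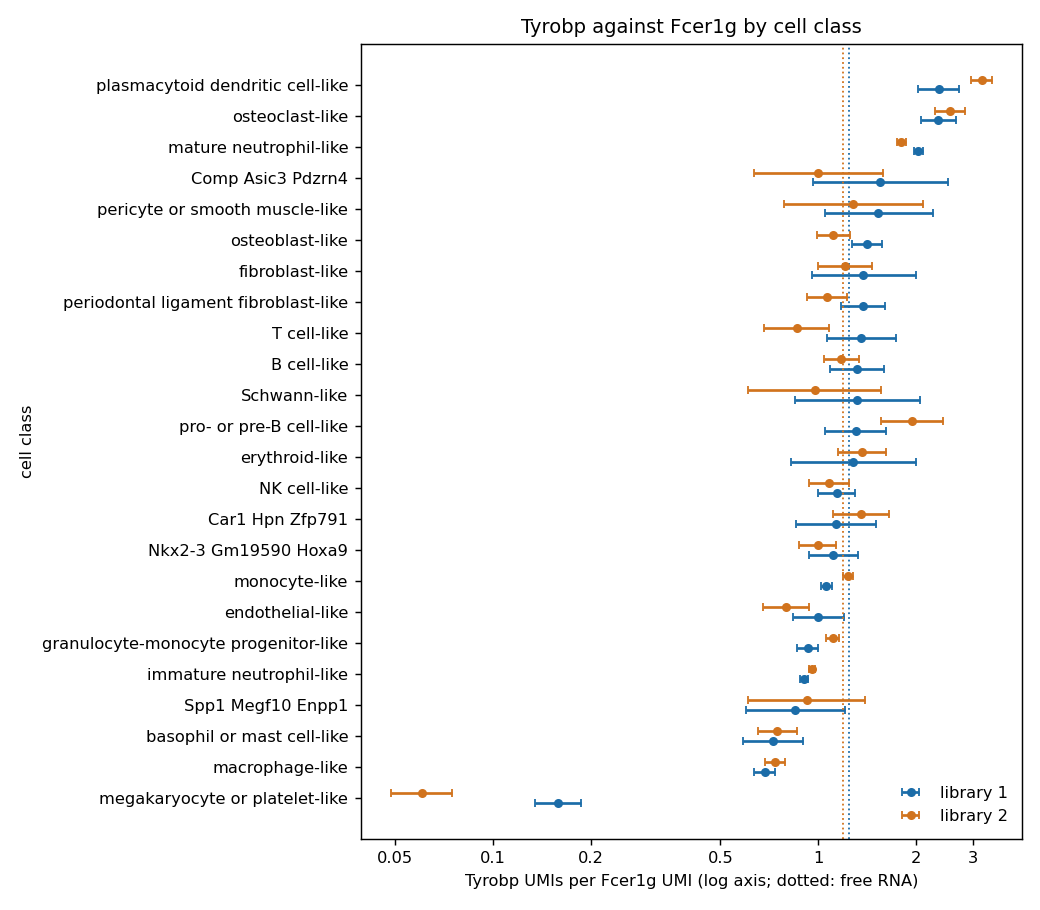
Tyrobp UMIs per Fcer1g UMI in each cell class, on a log axis, with exact 95% intervals for counting error, for library 1 (blue) and library 2 (orange); dotted lines give free RNA. Osteoclast-like cells, at 2.34 and 2.54, lie near the top, macrophage-like cells, at 0.684 and 0.735, near the bottom, and megakaryocyte or platelet-like cells lowest.

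Nfatc1 was detected in all 24 classes. Osteoclast-like cells had 446 UMIs in library 1, or 748 CPM (680 to 820), and 425 in library 2, or 543 CPM (493 to 598). Next came an unnamed cluster led by Spp1, Megf10 and Enpp1 at 278 CPM in library 1 and NK cell-like cells at 253 CPM in library 2, so the lead over the next class was 2.69-fold (2.33 to 3.10) and 2.15-fold (1.73 to 2.68). Periodontal ligament fibroblast-like cells followed at 223 and 199 CPM. Macrophage-like cells stood at only 45.2 and 50.8 CPM and monocyte-like cells at 36.0 and 38.6, below the 88.3 and 80.7 CPM of free RNA, and erythroid-like cells at 5.53 and 7.83. The step from macrophage- to osteoclast-like cells was 16.6-fold (12.6 to 22.0) and 10.7-fold (8.38 to 13.8). Osteoclast-like cells held 8.34% and 6.12% of the Nfatc1 UMIs in cells.

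Itgb3 was dominated by megakaryocyte or platelet-like cells, at 1659 and 1780 CPM; in platelets the β3 chain pairs with αIIb. In osteoclast-like cells, where it pairs with αv, it had 77 UMIs in library 1, or 129 CPM (102 to 161), and 369 in library 2, or 472 CPM (425 to 522), the widest gap between libraries among the 9 genes. In library 2 this was second of the 24 classes, and in library 1 it was in place 4, after megakaryocyte or platelet-like cells, plasmacytoid dendritic cell-like cells at 204 CPM and the Nkx2-3 cluster at 136. Free RNA held 98.8 and 86.2 CPM of Itgb3. Macrophage-like cells stood at 23.7 and 12.4 CPM, so osteoclast-like cells were 5.45 times as high in library 1 (3.56 to 8.51) and 38.1 times in library 2 (24.1 to 64.0). The library 2 value rests on the doublet step: in the 10 cells left after removal, the log2 ratio to macrophage-like cells was -0.91, a value set by the floor of 0.5 UMIs.

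Calcr was counted 13 times in the cells of library 1 and 29 times in those of library 2, too few for the 2-fold comparison. Of these UMIs, 9 and 15 lay in osteoclast-like cells, at 15.1 CPM (6.90 to 28.6) and 19.2 CPM (10.7 to 31.6), from 5 and 7 cells. No Calcr UMI was seen in macrophage- or monocyte-like cells, which allows up to 2.22 and 1.95 CPM in the former and 0.720 and 0.633 in the latter. With a floor of 3 UMIs, osteoclast-like cells were at least 6.79-fold and 9.81-fold higher than macrophage-like cells. In library 2 basophil or mast cell-like cells came next at 11.8 CPM (3.84 to 27.6), from 5 UMIs in 1 cell, so the order of these classes is not settled there.

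**Figure D3:**
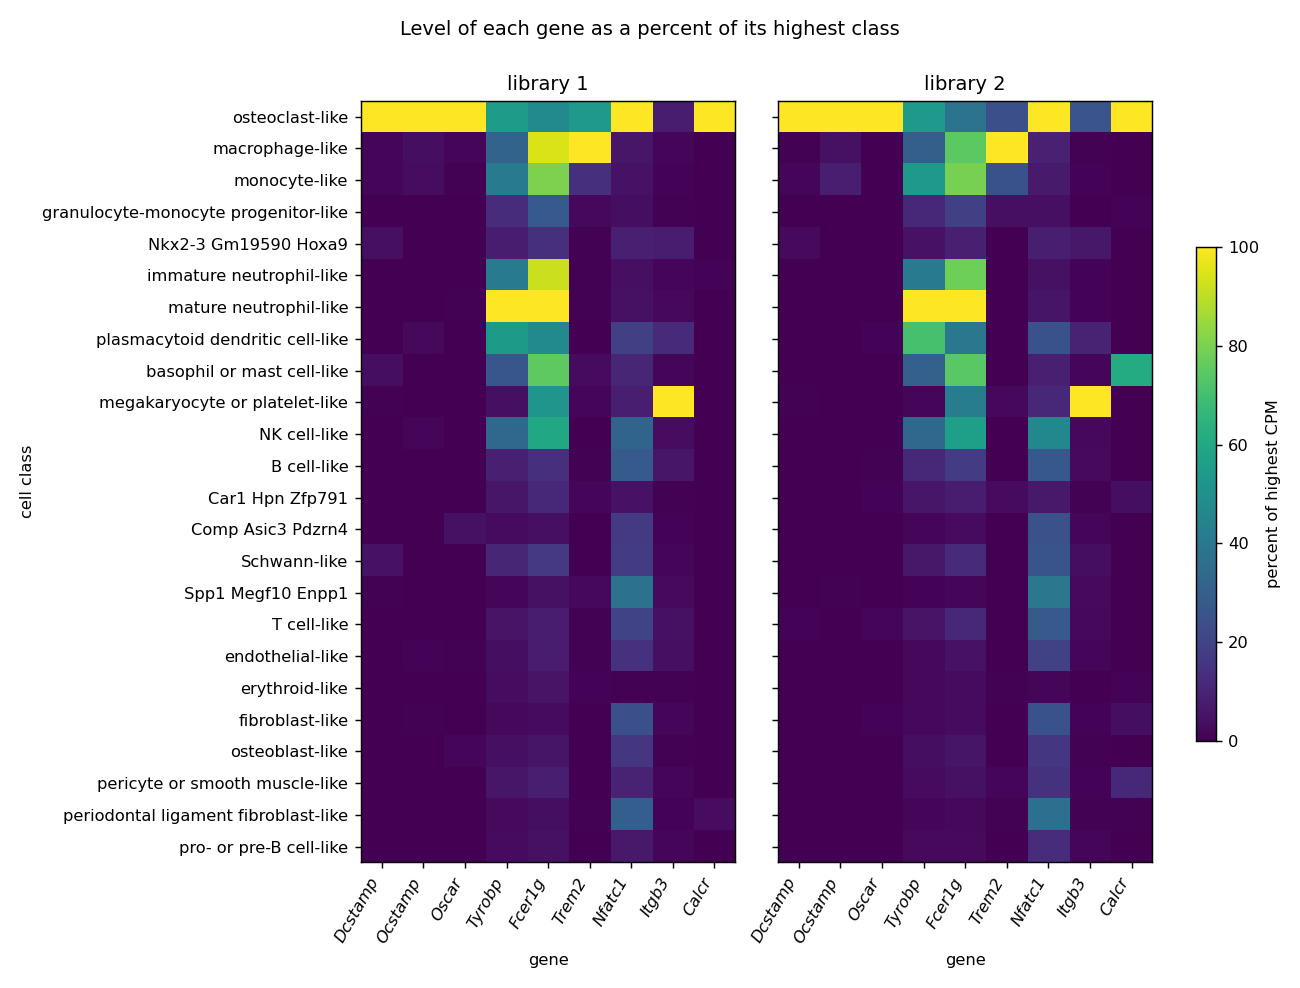
Level of each of the 9 genes in 24 cell classes, as a percent of the CPM in the class where the gene is highest, for each library. Dcstamp, Ocstamp and Oscar are bright in the osteoclast-like row and dark nearly everywhere else, Tyrobp and Fcer1g are spread over the myeloid classes, and the bright Calcr cell of basophil or mast cell-like cells in library 2 is 5 UMIs of 1 cell.

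Single osteoclast-like cells differed widely. In library 1, Dcstamp ranged from 0 to 10 UMIs per cell with a median of 0, Ocstamp from 0 to 16 with a median of 1 and Nfatc1 from 0 to 44 with a median of 2. In library 2 they ranged from 0 to 33 with a median of 1, from 0 to 30 with a median of 2, and from 0 to 41 with a median of 6.5. The fusion genes were found together in 19 of 56 cells and in 19 of 38, Dcstamp alone in 6 and 4 and Ocstamp alone in 12 and 5. Trem2 was never found without Nfatc1 among the 14 and 13 cells that had it, but Nfatc1 was found in 39 and 32 cells. Depth is shared by all genes of a cell, so deep cells show more of them. A single cell gave at most 20.8% of the UMIs of a gene in library 1 and 26.0% in library 2, leaving Calcr aside, where 1 cell gave 44.4% and 26.7%.

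Osteoclast-like cells were then divided at the median share of Ctsk among their UMIs, a split chosen after values had been seen. The medians were 14812 and 18117 CPM of Ctsk, and 22 of 56 and 8 of 38 cells lay within 1.5-fold of them. Cells above the median had 4.65 times the Dcstamp level of cells below it in library 1 (2.74 to 8.20) and 3.22 times in library 2 (2.18 to 4.89). For Oscar the ratio was 6.20 (3.01 to 14.0) and 13.2 (6.24 to 33.6), and for Itgb3 8.48 (4.62 to 16.8) and 11.2 (7.37 to 18.0). These 3 genes were higher with more Ctsk in both libraries.

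Ocstamp followed Ctsk less closely, with 1.99 (1.41 to 2.83) and 1.18 (0.851 to 1.65), and Fcer1g gave 1.19 (0.963 to 1.46) and 1.00 (0.832 to 1.21). Nfatc1 differed in direction between libraries, at 2.28 (1.88 to 2.76) and 0.772 (0.635 to 0.938), as did Tyrobp at 1.57 (1.37 to 1.79) and 0.892 (0.795 to 1.00). Trem2 had 20 UMIs above the median and 33 below it in library 1, a ratio of 1.04 (0.567 to 1.87), but 1 above and 26 below in library 2, where cells below were 34.8 times as high (5.72 to 1427).

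Depth moved with this split: the cells above the median had median totals of 2697.5 and 4659 UMIs and those below it 7270 and 13983. Among cells with at least 5000 UMIs, 12 against 17 in library 1 and 9 against 17 in library 2, the ratios were 4.93 and 3.26 for Dcstamp, 7.55 and 12.8 for Oscar, 16.4 and 10.9 for Itgb3 and 2.04 and 1.17 for Ocstamp. In library 1 these cells held 191149 of the 219178 UMIs above the median and 360981 of the 377340 below it. In library 2 they held 421156 of 447646 and 330711 of 334462. The ratios thus repeat nearly the same sums and cannot show what depth contributes. In library 2 the 9 cells above the median had a median depth of 53841 UMIs, and the 17 below it 16729. Among cells with at least 5000 UMIs, Trem2 stood at 105 CPM above the median and 91.4 below it in library 1, and at 2.37 and 72.6 in library 2. The monocyte marker Ly6c2 was at 63.9 CPM above the median and 143 below it in library 1, and at 35.7 and 68.8 in library 2, and its part in the result was not tested. Doublet removal took 18 of the 19 cells above the median in library 2, so the split could not be repeated there without the cells of high doublet score.

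**Figure D4:**
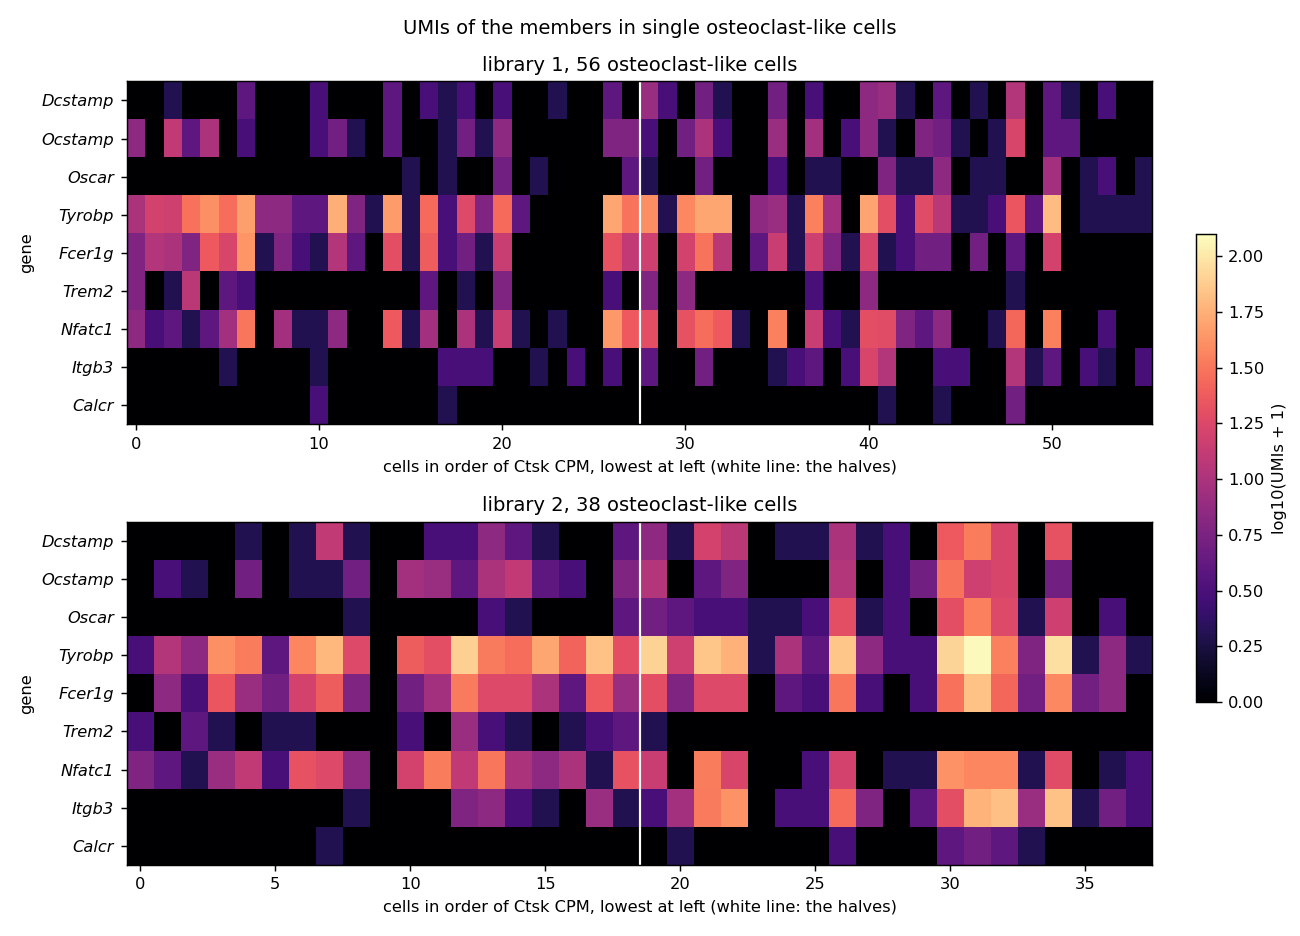
UMIs of the 9 genes in each osteoclast-like cell, as log10(UMIs + 1), with cells in order of their Ctsk share from lowest at left; the white line marks the median. In library 2, Trem2 was counted in 12 of the 19 cells left of the line and in 1 of the 19 right of it, while Oscar and Itgb3 were counted in 16 and 17 of the cells on the right.

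**Figure D5:**
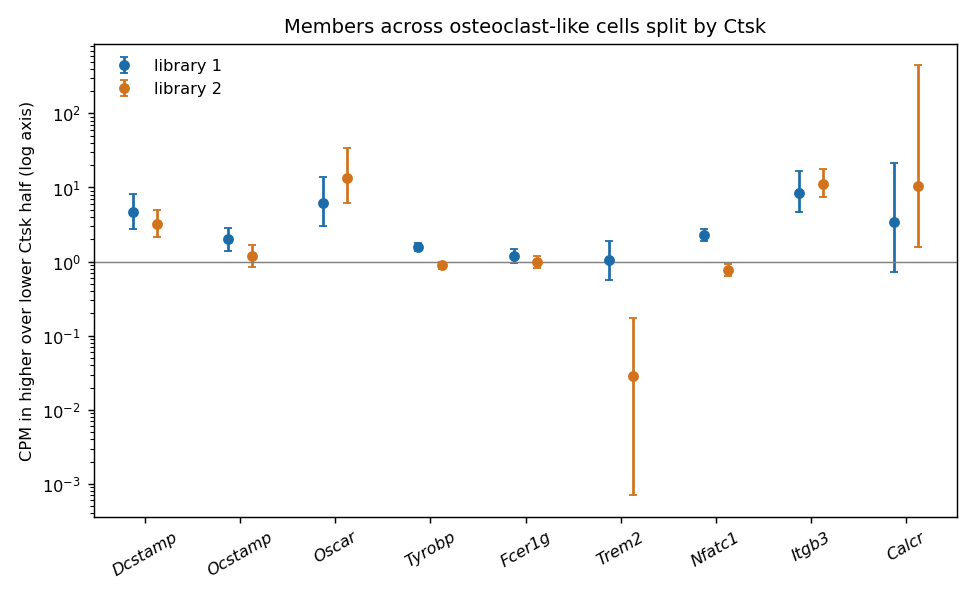
CPM of each gene in osteoclast-like cells above the median Ctsk share over that in cells below it, on a log axis, with exact 95% intervals for counting error, for library 1 (blue) and library 2 (orange). Dcstamp, Oscar and Itgb3 lie above 1 in both libraries, and Trem2 lies near 1 in library 1 and far below it in library 2.

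The genes around these 9 were taken from lists, and none of the counts below is a test. They give genes at least 2-fold higher or lower in osteoclast- than in macrophage-like cells in both libraries, to be read beside 12.7% higher and 13% lower over all genes tested. A share at or below these, as for the kinases and adaptors or the integrin genes that were higher, says nothing about the list. In every list, a gene with few UMIs in 1 class enters through the other class, which limits the direction it can take. Of 4 genes of RANK and CSF1 signalling, 2 were higher, 0 were lower, and Traf6 and Traf3 were neither. Those higher were the receptors: Tnfrsf11a, the receptor for RANKL, stood at 122 and 152 CPM against 54.0 and 51.5, and Csf1r at 630 and 996 against 272 and 358. Of 18 ITAM-coupled receptors other than the members, 11 were measured, 0 were higher and 9 were lower, and the list's median log2 ratio was -2.87 and -3.92. Of those lower, Fcgr1, Fcgr3, Fcgr4, Cd300ld, Cd300lb, Clec7a and Pilrb1 had fewer than 20 UMIs in the osteoclast-like cells of either library. They passed the minimum of 20 through macrophage-like cells and could not have been counted as higher, so the count and median describe the genes that entered. Among those lower were the Fcγ receptors Fcgr1, at 1.68 CPM in osteoclast-like cells of library 1 and 0 UMIs in library 2 against 144 and 87.9 CPM in macrophage-like cells, and Fcgr3, at 25.1 and 5.11 against 201 and 221. The lectin receptor Clec4e stood at 52.0 and 3.84 CPM against 437 and 201.

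Of the kinases and adaptors that carry the ITAM signal, 1 of 15 measured was higher and 5 were lower. The one that was higher was Src, the kinase needed for the ruffled border, at 129 and 119 CPM against 62.2 and 24.1. Vav1, an exchange factor for Rac, was among those lower, at 20.1 and 25.6 CPM against 114 and 106. Of 12 inhibitory genes of the opposing ITIM pathway, Dok3 was higher, at 119 and 121 CPM against 54.8 and 56.7, and 5 were lower, among them Cd300a, Lilrb4a and Lair1. Lair1, an inhibitory collagen receptor, stood at 13.4 and 12.8 CPM against 61.4 and 59.3.

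Of 14 other cell fusion genes, 3 were higher and 6 lower. Those higher were Mfge8, at 25.1 and 67.8 CPM against 8.88 and 22.2, Sh3pxd2a, the podosome scaffold TKS5, at 87.2 and 102 against 37.8 and 41.0, and Myo10 at 225 and 116 against 88.8 and 56.0. The tetraspanin gene Cd81, at 16.8 and 8.95 against 197 and 288, and the scavenger receptor gene Stab1, at 11.7 and 7.67 against 118 and 168, were among those lower. In the calcium and calcineurin list 0 of 10 were higher and 1 was lower: Rcan1, a calcineurin regulator that NFAT itself induces, stood at 121 and 191 CPM against 666 and 451. Monocyte-like cells were lower still, at 25.4 and 19.4 CPM of Rcan1.

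Of 13 transcription genes around Nfatc1, 4 were higher and 4 lower. Ppargc1b, a coactivator of mitochondrial biogenesis, stood at 68.7 and 70.3 CPM against 2.96 and 5.86, Fosl2 at 419 and 376 against 108 and 89.3, Mitf at 67.1 and 76.7 against 25.2 and 23.5, and Nfatc3 at 45.3 and 56.3 against 14.8 and 23.5. The AP-1 genes Fos, Jun and Junb were lower, with Fos at 262 and 127 CPM against 825 and 965, and so was Nfatc2. Of 8 repressors of osteoclast formation, 0 were higher and 5 were lower, among them Irf8 at 16.8 and 11.5 CPM against 502 and 270, Ikzf1 at 6.71 and 11.5 against 45.2 and 59.3, and Bcl6 at 11.7 and 17.9 against 67.4 and 50.8.

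Of 15 integrin partners and signalling genes, 1 was higher, the ubiquitin ligase gene Cblb at 92.2 and 95.9 CPM against 14.8 and 10.4, and 2 were lower, Itgb5 and Itga5. In the calcitonin family 0 of 4 measured genes were higher and Ramp1, whose product modifies the calcitonin receptor, was lower, at 11.7 and 6.39 CPM against 34.8 and 26.1.

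Genes with the most similar pattern to each member were found from log2(CPM + 5) over the 24 classes, as the lower Pearson r of the libraries; classes share libraries and ambient RNA, and the values are descriptions. Dcstamp, Ocstamp and Oscar had overlapping neighbours: the osteoclast marker Slc9b2 at r of at least 0.935, 0.908 and 0.970, and Nyap2 at 0.954, 0.894 and 0.939. The third neighbour was Cyp2s1 for Dcstamp at 0.909 and Mst1r for Ocstamp and Oscar, at 0.887 and 0.934. Tyrobp and Fcer1g were near each other at 0.879 and both near the leukocyte integrin gene Itgb2, at 0.895 and 0.923. Tyrobp was further near Pirb at 0.868 and Fcer1g near Lcp2 at 0.882. Trem2 was nearest to Spic at 0.938, Gm48065 at 0.930 and Ms4a7 at 0.908. The nearest to Nfatc1 were Ndfip1 at 0.774, Fbxo32 at 0.752 and Bend3 at 0.735, and to Itgb3 Pde10a at 0.802, Pls1 at 0.769 and Inf2 at 0.751. Calcr, with too few UMIs to rank well, was nearest to Mst1r at 0.831, Cyp2s1 at 0.749 and Oscar at 0.747.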

How the data were processed

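The deposited files hold raw UMI counts per gene and barcode as sparse matrices, per the file headers, for 2 unfiltered libraries. Which aligner and counter the authors ran is not given in the sources used here. Per the submitters' processing notes, FastQC 0.11.9 was used, and GRCh38 and mm10 are listed as builds with no role. Of 99819 features, 43167 without a gene symbol were left out, with 0.636% and 0.459% of the UMIs, leaving 77546284 and 116742643.

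A barcode was called a cell at the inflection of the rank curve (769 and 1030 UMIs, at least 500), with at least 200 genes and at most 20% mitochondrial UMIs. The cells were clustered together without batch correction (scanpy 1.11.5, leidenalg 0.10.2): 2000 variable genes without the members and listed genes, 30 principal components, 15 neighbours, Leiden resolution 1. A cluster took a name when at least 3 markers and 50% of a list were raised 3-fold and no other list had more of its 10 leading genes. Of 34 clusters 29 were named, and the 24 classes with at least 20 cells in each library were compared. A doublet removal that had been intended was set aside after it was seen to take 30 of 38 osteoclast-like cells of library 2; doublets may remain.

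Counts were summed per class and library. A gene entered a comparison with at least 20 UMIs over both classes in each library, and levels under 0.5 UMIs were set to 0.5. Poisson, Clopper-Pearson and conditional intervals are exact. The ratio script was tested on simulated data. All 9 members are named; of each other list, genes past 2-fold in both libraries, at most the 5 highest and 3 lowest; for each member its 3 nearest genes. A few further genes of those lists were named after their values were seen. Members and lists were chosen with earlier results of these data known. Promoters are RefSeq's on GRCm38.p6, held for 4 of 9 members.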

Additional observations from a re-analysis of the deposited data

How the results depend on the processing

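With the 5% highest doublet scores removed, osteoclast-like cells in library 2 fell from 38 to 10, and the members at least 2-fold higher than in macrophage-like cells in both libraries from 5 to 1; the log2 ratio of Itgb3 in library 2 turned to -0.91, with too few cells left to count it. Removing doublets and dropping the mitochondrial limit were chosen as alternatives after seeing the data; keeping all cells, the main choice here, had been planned as the alternative. With each cell thinned to 1000 UMIs the count of 5 was 2, since fewer genes reached 20 UMIs. A gate on single cells, at least 3 of 6 osteoclast markers with a UMI, gave 208 and 228 cells and 3 members highest in both libraries. Under the other settings run (1000 UMIs per barcode, mitochondrial limit of 10% or none, resolution 0.5 or 2, each library clustered on its own, members allowed among variable genes, mean of per-cell CPM, at least 50 UMIs), the counts stayed within 1.5 times of those given. Of 308 recomputed log2 ratios of single members, 239 stayed within counting error, 68 moved beyond it and 1 changed sign from a called value. Dcstamp, Ocstamp, Oscar, Tyrobp, Trem2 and Itgb3 kept their highest class in all 11 settings that rank classes, Nfatc1 in 10, Fcer1g and Calcr in 8 each. No paired analysis was possible because each possible group has 1 library and no test was made. With 38 to 56 osteoclast-like cells, Calcr is at the limit of this depth.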
